A study of Mus musculus with 6 samples.

Results

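The mitochondrial genome is a small circle of DNA kept inside the mitochondrion. It encodes subunits of the respiratory chain, the 2 ribosomal RNAs of the mitochondrial ribosome and the transfer RNAs that read its code. Both strands are transcribed as long precursors, and the transfer RNAs, which lie between most of the other genes, mark where these precursors are cut. The messenger and ribosomal RNAs then receive short poly(A) tails, which is why methods that prime on poly(A) capture them. In single-cell work, the share of counts from these genes is a standard measure of cell quality, but it also differs between cell types. The genes described here were all rows of the deposited table whose symbol begins with mt-, 29 of 18204 genes. GENCODE M21 lists 37 mitochondrial genes. The table had 11 of 13 coding genes, both ribosomal RNAs and 16 of 22 transfer RNAs, and mt-Atp8, mt-Co3, mt-Td, mt-Tg, mt-Th, mt-Tk, mt-Tn and mt-Ts1 were not analysed here.

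The series asked how loss of IDOL changes gene expression in the cells of the mouse hypothalamus. IDOL is the ubiquitin ligase encoded by Mylip, which marks lipoprotein receptors for breakdown. Hypothalamus of C57BL/6J mice aged 8 weeks was dissociated and profiled by Drop-seq, in which droplets pair each cell with a barcoded bead and transcripts are counted from the 3' end as unique molecular identifiers (UMIs). There were 3 libraries from wild-type mice (WT1 to WT3) and 3 from IDOL knockout mice (KO1 to KO3), and the labels named no other treatment. Values of WT1 to WT3 and of KO1 to KO3 are given in that order. The labels gave neither the deleted part of Mylip nor the number of animals behind a library, so p-values measure the spread between libraries, which may be partly technical. Libraries were made on 2 days with both groups on each, but the labels do not tie a library to a day, and values within a day could not be computed.

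Cells were kept with at least 300 genes, and doublets were removed, which left 9907 cells with 1047 to 1990 cells and 1515517 to 3759756 UMIs per library. No cap on mitochondrial content was set, because it would act on the genes described. A cap of 20% of UMIs would have taken out 572 further cells and is given beside the results it changes. Only 3 barcode sequences occurred in 2 libraries. Mylip had 68, 27 and 43 UMIs in WT1 to WT3 and 2, 0 and 0 in KO1 to KO3, as the genotype labels say. Clusters were made without any mt- row and were named from marker genes, so each name stands for cells like that type. The 7 classes with 20 or more cells in every library were neuron-like (2948 cells), astrocyte-like (2027), oligodendrocyte-like (1245), endothelial-like (959), oligodendrocyte-precursor-like (OPC-like, 596), microglia-like (392) and tanycyte-like (364). Tanycytes line the third ventricle of the hypothalamus.

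Several mitochondrial genes have near-identical copies in the nuclear genome, and this bears on what could be counted. A block on chromosome 1 (GRCm38, annotated between 24611535 and 24616197, minus strand) holds annotated copies of 7 of the genes. The copies matched mt-Co2 (681 of 684 bases), mt-Atp6 (678 of 681), mt-Co3 (783 of 784) and mt-Nd4l (294 of 297) with 0 mismatches. The 876 bases at the start of mt-Nd4 and the last 483 bases of mt-Co1 were also copied, with 0 and 1 mismatches. The copy of mt-Nd3, Gm28438, matched over 345 of 348 bases with 1 mismatch, T3C, counted from 1 at the 5' end of the mitochondrial gene. None of these copies was a row of the table. Over all 9907 cells, mt-Atp6 had 3 UMIs, mt-Co2 had 4 and mt-Nd4l had 14, of which 12 were in WT1. mt-Nd4, whose last part is not in the block, had 44359 UMIs. mt-Co1, whose last 483 bases are in the block with 1 mismatch, had 5247 UMIs in WT1 alone. How the authors counted reads that fit more than one place is not given in the sources used here, so levels of these genes are uncertain, and the part of the copies in these counts was not tested. Gm4076, a nuclear row that matched mt-Nd5 over 954 bases at 95.2% identity, had 14 UMIs in the whole table.

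The sequences of mt-Nd3 and its neighbour mt-Tr are shown first because these 2 genes set the knockout libraries apart. All are written 5' to 3' from the GENCODE M21 transcripts (GRCm38). The first pair gives bases 1 to 60 of mt-Nd3 (chrM:9459-9518, plus strand) and of its nuclear copy (chr1:24613060-24613119, minus strand), with the T3C mismatch in capitals.
mt-Nd3, start: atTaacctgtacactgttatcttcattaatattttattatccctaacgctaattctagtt
Gm28438, start: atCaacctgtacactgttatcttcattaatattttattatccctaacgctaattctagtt
The last 60 bases of mt-Nd3 (chrM:9747-9806) lie where a 3' method would read, and 1 base separates them from mt-Tr (chrM:9808-9875), the transfer RNA for arginine. The capitals in mt-Tr mark a run of 8 A, the longest run of A in any of the 22 transfer RNAs, whose median is 4.
mt-Nd3, end: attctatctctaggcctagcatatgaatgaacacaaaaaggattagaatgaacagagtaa
mt-Tr, whole: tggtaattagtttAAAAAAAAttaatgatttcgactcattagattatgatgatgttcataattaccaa
Of the transfer RNAs that marked astrocyte-like cells, mt-Tf (phenylalanine, chrM:1-68) and mt-Tv (valine, chrM:1025-1093) are printed as examples, also with the longest run of A in capitals.
mt-Tf, whole: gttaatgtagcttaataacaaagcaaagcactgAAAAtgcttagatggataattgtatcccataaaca
mt-Tv, whole: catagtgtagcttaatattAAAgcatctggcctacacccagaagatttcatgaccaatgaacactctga

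mt-Nd3, a membrane subunit of complex I, was counted in every knockout library and in no wild-type library. Over all cells it had 0, 0 and 0 UMIs in WT1 to WT3, and 530, 988 and 114 in KO1 to KO3. The knockout libraries held 192, 344 and 41.2 CPM (UMIs of the gene divided by all UMIs of the same cells and scaled to 1000000), so that KO2 was the highest and KO3 the lowest. The summed knockout level was at least 464-fold higher than the floor of 3 UMIs over the wild-type group, a count of 0 that allows up to 0.418 CPM and covers counting error only. Without WT1, which had the most UMIs, this bound was 221-fold, and without KO2 it was 278-fold. Bases 1 to 345 of mt-Nd3 match its nuclear copy except at base 3. How reads that fit both were counted is not given, so a count of 0 need not be a level of 0. This limit holds for the bounds by class too, and it was not tested. At least 1 UMI was counted in 338 of 1702 cells in KO1, 580 of 1983 in KO2 and 101 of 1990 in KO3, or 19.9%, 29.2% and 5.08%, at medians of 970, 797 and 811 UMIs per cell. Thinned to 500 UMIs per cell, which leaves out 1472 shallower cells and keeps 1516, 1639 and 1633 cells of KO1 to KO3, these shares were 9.70%, 16.9% and 2.51%, and 0 in the 3 wild-type libraries. Barcodes with fewer than 300 genes, which were left out as cells, also carried it: 12.1%, 15.6% and 2.30% of them in KO1 to KO3 had a UMI, at medians of 358, 336 and 314 UMIs. Per UMI they held more than the cells did, at 356, 605 and 74.9 CPM. A red-blood-cell-like cluster of 7 cells, which also carried neuron markers, was too small to serve as a background without mitochondria. Cells that carry the transcript therefore cannot be told apart from cells whose droplets caught free RNA. The shares given are not shares of expressing cells. As a share of mitochondrial UMIs, mt-Nd3 made up 0.194% in KO1, 0.571% in KO2 and 0.126% in KO3, the same order of libraries as by CPM.

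mt-Tr showed the same split at a lower level. It had 3, 3 and 4 UMIs in WT1 to WT3 and 48, 56 and 28 in KO1 to KO3, or 0.798, 1.98 and 2.11 CPM against 17.4, 19.5 and 10.1 CPM. All knockout libraries lay above all wild-type libraries. The group levels were 1.63 ± 0.723 CPM (SD, n = 3) in WT and 15.7 ± 4.93 CPM in KO. The strand counted is not stated, so reads of a precursor that spans both genes cannot be told apart from reads of either gene alone.

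**Figure D1:**
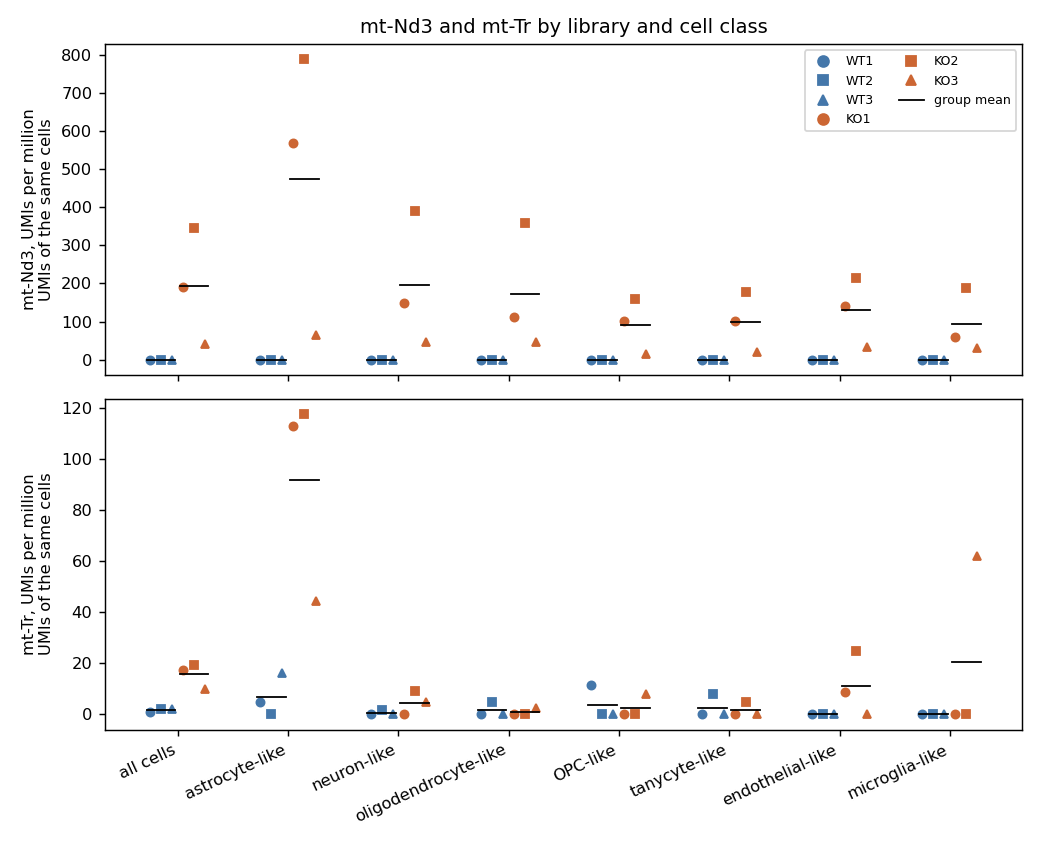
CPM of mt-Nd3 (top) and mt-Tr (bottom), on linear axes, for all cells and for 7 cell classes; each point is a library and each black line a group mean. mt-Nd3 is at 0 in every wild-type library of every class and between 15.7 and 789 CPM in the knockout libraries, while mt-Tr stands apart mainly in astrocyte-like cells.

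In the model of all genes over all cells, neither gene passed. edgeR's quasi-likelihood test called 0 of 13175 genes after Benjamini-Hochberg adjustment (0.0%), with 296 genes at an unadjusted p under 0.05. The adjusted p was 0.341 for mt-Nd3, and it was 0.244 for mt-Tr at a log2 fold change of 3.41 ± 0.48 (SE). With DESeq2 both genes were called, at adjusted p = 9.38e-07 and 5.85e-04. With 1 library left out at a time, edgeR's adjusted p ranged from 4.1e-04 to 1.00 for mt-Nd3 and from 0.0408 to 1.00 for mt-Tr. Of these 6 fits only the one without KO3, the knockout library with the least of both, called them, and the other 5 called neither.

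In each of the 7 classes mt-Nd3 had 0 UMIs in every wild-type library and at least 1 in every knockout library. Because the barcodes with few genes held it too, UMIs in a class do not show that its cells made it, and how much of them was free RNA was not tested. The level was not even across classes: astrocyte-like cells of KO1 and KO2, at 567 and 789 CPM, lay above the barcodes with few genes, and the other 6 classes lay below them in all 3 knockout libraries. In astrocyte-like cells, which make the glial support of neurons, it had 0 UMIs in each WT library and 236, 261 and 22 in KO1 to KO3, at least 123-fold higher. In neuron-like cells it had 182, 465 and 38 UMIs in KO1 to KO3, at least 224-fold higher. In oligodendrocyte-like cells, the myelin-forming glia, it had 26, 87 and 19 UMIs, at least 36.6-fold higher. In tanycyte-like cells it had 19, 36 and 1 UMIs, at least 22.1-fold higher. KO2 held the highest CPM and KO3 the lowest in each of these 4 classes. Without KO2 the bounds were 88.1-fold, 113-fold, 17.2-fold and 14.5-fold, and without WT1 they were 57.8-fold, 88.6-fold, 22.0-fold and 7.13-fold, in the same order of classes. Without KO3 the bound in oligodendrocyte-like cells rose to 58.0-fold.

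edgeR's test within classes called mt-Nd3 in those 4. The adjusted p was 4.5e-06 in astrocyte-like cells, where 0.0381% of 5256 genes were called. It was 8.7e-05 in neuron-like cells (0.0103% of 9667 genes called), 2.7e-05 in oligodendrocyte-like cells (0.155% of 3874) and 9.2e-04 in tanycyte-like cells (0.0558% of 3587). With edgeR's robust settings the call was lost in astrocyte-like, neuron-like and oligodendrocyte-like cells, at adjusted p = 0.897, 0.969 and 0.750. In tanycyte-like cells DESeq2 (adjusted p = 0.565) and leaving out WT1 (0.0956) or KO2 (0.274) ended it. There mt-Nd3 did not pass the filter on low counts and was tested only because mt- rows were always kept. In the smaller classes the wild-type libraries were again at 0, but the knockout counts were low. KO1 to KO3 had 16, 26 and 10 UMIs in endothelial-like cells, 9, 16 and 2 in OPC-like cells and 2, 9 and 2 in microglia-like cells, at least 10.4-fold, 6.02-fold and 4.00-fold higher. Without KO2 these bounds were 6.73-fold, 3.59-fold and 1.84-fold. Without WT1 they were 6.52-fold, 3.52-fold and 2.57-fold, without WT3 they were 6.48-fold, 3.99-fold and 2.39-fold, and without KO3 they rose to 19.3-fold, 9.35-fold and 6.09-fold. The edgeR adjusted p was 0.0557 (0.0% of 2633 genes called), 0.0774 (0.0% of 2225) and 0.436 (0.132% of 755). Without the filter on low counts mt-Nd3 was called in endothelial-like and OPC-like cells, at adjusted p = 1.9e-07 and 0.0044. With 1 library left out at a time it was called without KO3 in both (6.6e-04 and 0.0017) and without WT2 in endothelial-like cells (0.0413), and the other fits gave 0.101 to 0.711 in endothelial-like and 0.147 to 0.943 in OPC-like cells.

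mt-Tr was called in astrocyte-like cells only among the 7 classes, and whether its difference is larger there than elsewhere was not tested. Astrocyte-like cells held 2, 0 and 4 UMIs in WT1 to WT3 and 47, 39 and 15 in KO1 to KO3, or 101 of the 132 knockout UMIs. The log2 fold change was 3.59 ± 0.55 (SE, edgeR adjusted p = 9.8e-04). The call was lost without WT1 (adjusted p = 0.110) and among cells with at most 20% mitochondrial UMIs (4.34, adjusted p = 0.0703). Neuron-like cells had 0, 1 and 0 UMIs in WT1 to WT3 and 0, 11 and 4 in KO1 to KO3, so that KO1 was no higher than the wild-type libraries and KO2 held most of the UMIs. The ratio of the summed counts was 14.7, with an exact 95% interval of 2.26 to 619 that covers counting error only. Without KO2 it was 6.19 with an interval of 0.612 to 305, without WT1 it was 5.82 (0.896 to 245), and without KO1 it was 23.6 (3.63 to 993). Without WT2, which held the only wild-type UMI, the knockout level was at least 3.94-fold higher. In each of the other 5 classes both groups together had 2 to 4 UMIs, too few to show a difference at this depth. Barcodes with fewer than 300 genes held 52.2, 15.7 and 46.4 CPM of mt-Tr in KO1 to KO3. Neuron-like cells, at 0, 9.24 and 4.77 CPM, lay below them in each library. Astrocyte-like cells, at 113, 118 and 44.6 CPM, lay above them in KO1 and KO2 only. For mt-Tr too, UMIs in a class do not show that its cells made it, and the part of free RNA was not tested.

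The other 27 mitochondrial genes were mostly at a higher level in the knockout libraries as a group, but none passed the adjusted test. By edgeR 0 of the 27 were called over all cells, 24 had a positive log2 fold change and 9 had an unadjusted p under 0.05. Their median log2 fold change was 0.60, and over all 29 it was 0.63, against 0.01 over all 13175 genes. In 8 of the 29 every knockout library lay above every wild-type library, against 4.45% of all genes: mt-Nd3, mt-Tr and 6 of the other 27, mt-Tf, mt-Tl1, mt-Tl2, mt-Tm, mt-Tt and mt-Ty. Transfer RNAs made up 7 of the 8. In astrocyte-like cells it was also 8 of 29, against 5.31% of genes, with mt-Te in place of mt-Tl1. The remaining classes held fewer, and not all in this direction. In neuron-like cells 2 of 29 did not overlap (mt-Nd3 and mt-Ti, both higher in KO), against 10.6% of genes in either direction. It was 1 of 25 in endothelial-like cells (mt-Nd3, against 10.6%), 2 of 24 in OPC-like cells (mt-Nd3 and mt-Tt, against 11.6%) and 4 of 24 in microglia-like cells (mt-Nd3, mt-Tc, mt-Tl1 and mt-Tv, against 12.5%), all higher in KO. In oligodendrocyte-like cells it was 4 of 27, against 12.0%, with mt-Nd3 and mt-Tq higher and mt-Cytb and mt-Ti lower in KO. In tanycyte-like cells it was 3 of 26, against 8.81%, with mt-Nd3 and mt-Tl1 higher and mt-Cytb lower. With mt-Nd3 set aside, the members' shares in these 6 classes were near or below those of all genes. The 4 genes in microglia-like and the 2 in OPC-like cells did not pass the filter on low counts there. In microglia-like cells mt-Tl1 had 0, 1 and 1 UMIs in WT1 to WT3 and 1, 2 and 3 in KO1 to KO3. mt-Tt in OPC-like cells had 0 in each WT library and 3 in each KO library. mt-Te in astrocyte-like cells was at 0 to 4.05 CPM in WT and 5.95 to 18.1 in KO. With astrocyte-like cells left out, the median over the 29 genes was 0.34 and 3 had an unadjusted p under 0.05. Of the 29, 25 passed the filter on low counts, and mt-Atp6 (ATP synthase), mt-Co2 (complex IV), mt-Nd4l (complex I) and mt-Te did not.

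Among the transfer RNAs, mt-Tt (threonine) was at 25, 18.5 and 25.3 CPM in WT1 to WT3 and at 56.4, 39.0 and 39.7 in KO1 to KO3, a log2 fold change of 1.00 ± 0.24 (SE). mt-Tf was at 16.5, 16.5 and 14.2 CPM against 44.8, 25.8 and 28.9, a log2 fold change of 1.11 ± 0.28. Neither passed edgeR's adjusted test (adjusted p = 1.00 for both), although neither group overlapped the other. mt-Tl1 and mt-Tl2, the 2 transfer RNAs for leucine, had log2 fold changes of 0.83 ± 0.22 and 0.82 ± 0.27, and mt-Tm (methionine) of 0.77 ± 0.24. mt-Tc (cysteine, 0.76), mt-Ti (isoleucine, 0.68), mt-Tp (proline, 0.67), mt-Ta (alanine, 0.60), mt-Tq (glutamine, 0.54) and mt-Tv (0.51) followed. mt-Ty (tyrosine) had only 75 UMIs and a log2 fold change of 0.86 ± 0.46. mt-Ts2 (serine, 0.20) and mt-Tw (tryptophan, -0.20) showed the smallest differences. mt-Te (glutamate) had 49 UMIs and did not pass the filter on low counts.

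The 2 ribosomal RNAs carried most of the mitochondrial UMIs, 64.1% ± 8.30 (SD, n = 6 libraries), and nearly all of that was mt-Rnr2, the RNA of the large subunit. mt-Rnr2 was at 33158, 25484 and 30602 CPM in WT1 to WT3 and at 73770, 34920 and 16205 in KO1 to KO3. KO1 was thus the highest of the 6 libraries and KO3 the lowest. The log2 fold change of 0.54 ± 0.49 turned to -0.23 when KO1 was left out. mt-Rnr1, the RNA of the small subunit, was at 1326, 1522 and 1926 CPM in WT1 to WT3 against 3561, 2279 and 1358, a log2 fold change of 0.63 ± 0.35. The groups overlapped for both.

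Messenger RNAs of the respiratory chain had smaller differences between the groups, apart from mt-Nd3 and mt-Nd6. Complex I takes electrons from NADH, and its subunits mt-Nd1, mt-Nd2, mt-Nd4 and mt-Nd5 had log2 fold changes of 0.08 ± 0.25, 0.33 ± 0.26, 0.17 ± 0.20 and 0.19 ± 0.46. mt-Nd6, the only coding gene on the light strand, was at 62.6 ± 10.9 CPM (SD, n = 3) in WT and 98.7 ± 35.0 in KO, a log2 fold change of 0.70 ± 0.29 with edgeR adjusted p = 1.00. mt-Cytb, the mitochondrially encoded subunit of complex III, was at 5679, 4717 and 5931 CPM in WT1 to WT3 and at 5833, 5329 and 5194 in KO1 to KO3, a log2 fold change of 0.03 ± 0.20. mt-Co1, the catalytic subunit of complex IV, ranged from 472 to 1396 CPM in WT and from 518 to 2096 in KO, a log2 fold change of 0.30 ± 0.50. The direction was not stable: among cells with at most 20% mitochondrial UMIs, mt-Nd1, mt-Nd4, mt-Nd5 and mt-Cytb turned slightly negative, at -0.11, -0.02, -0.02 and -0.14. Per kilobase of gene, mt-Cytb had 74772 UMIs, mt-Nd1 69314, mt-Nd2 34534, mt-Nd4 32191, mt-Nd5 22047, mt-Co1 11673 and mt-Nd6 2424, against 360492 for mt-Rnr2.

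**Figure D2:**
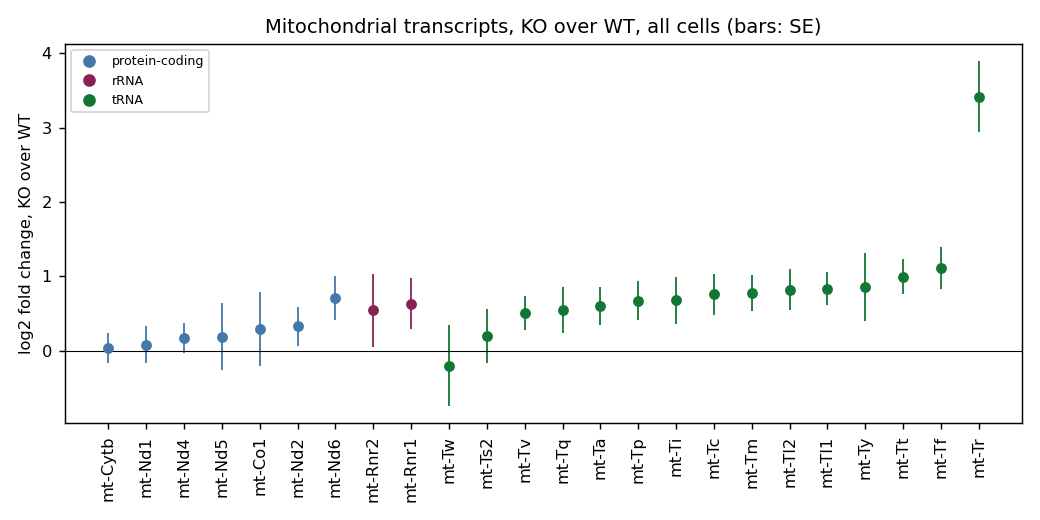
Log2 fold change of KO over WT over all cells from edgeR (points) with its standard error (bars) for the 24 mitochondrial genes that passed the filter on low counts, without mt-Nd3, whose wild-type level was 0. mt-Tr stands alone at 3.41, the other transfer RNAs except mt-Tw lie between 0.20 and 1.11, and mt-Cytb lies at 0.03.

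Summed over the genes, the mitochondrial share of UMIs was 5.62%, 4.37% and 4.81% in WT1 to WT3 and 9.86%, 6.03% and 3.27% in KO1 to KO3. The knockout libraries held both the highest and the lowest share. The means were 4.93% ± 0.638 (SD, n = 3) and 6.39% ± 3.31, a difference of 1.45 percentage points (two-sided exact permutation p = 0.6; 3 against 3 libraries allow no p below 0.1). Without KO1 the difference was -0.28. The share of cells above 20% was 5.30%, 1.72% and 4.65% in WT1 to WT3 and 14.2%, 5.65% and 1.96% in KO1 to KO3, a difference of 3.39 percentage points (exact permutation p = 0.4) that turned to -0.09 without KO1. In none of the 7 classes did the share differ between the groups beyond the spread: KO minus WT ranged from 0.18 percentage points in tanycyte-like to 5.38 in astrocyte-like cells, with exact permutation p from 0.4 to 0.9 and adjusted p over the 7 classes from 0.817 to 0.9.

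Nuclear-encoded genes that transcribe, cut and degrade mitochondrial RNA gave no called difference. Of a list of 40 such factors, 35 were tested over all cells and 0 were called by edgeR; 15 had a higher and 20 a lower level in KO, with a median log2 fold change of -0.10. Only Supv3l1, the helicase that works with the exonuclease PNPase to degrade mitochondrial RNA, had an unadjusted p under 0.05: 13.6 ± 2.63 CPM (SD, n = 3) in WT against 20.5 ± 3.12 in KO, a log2 fold change of 0.57 ± 0.25 (adjusted p = 1.00). Trmt10c, a subunit of the enzyme that cuts the 5' ends of mitochondrial transfer RNAs, was at 28.7 ± 4.85 against 21.3 ± 3.43 CPM (log2 fold change -0.42 ± 0.22). Fastkd3, a mitochondrial RNA-binding protein, was at 13.0 ± 1.67 against 9.35 ± 1.34 CPM (-0.49 ± 0.27).

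Between cell classes the clearest feature was astrocyte-like cells, whose mitochondrial RNA was more abundant and richer in transfer RNA. Their mitochondrial share of UMIs was 14.1% ± 6.80 (SD, n = 6 libraries), against 4.45% ± 1.43 in all other cells, and was higher in 6 of 6 libraries. The difference of 9.61 percentage points had a two-sided exact sign-flip permutation p of 0.03125, the smallest that 6 libraries allow, and an adjusted p of 0.0729 over the 7 classes. By library, the astrocyte-like share was 12.3%, 9.56% and 12.3% in WT1 to WT3 and 27.1%, 14.9% and 8.23% in KO1 to KO3. With the cap of 20% it was 8.78% ± 2.37 against 4.19% ± 1.23, again higher in 6 of 6.

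**Figure D3:**
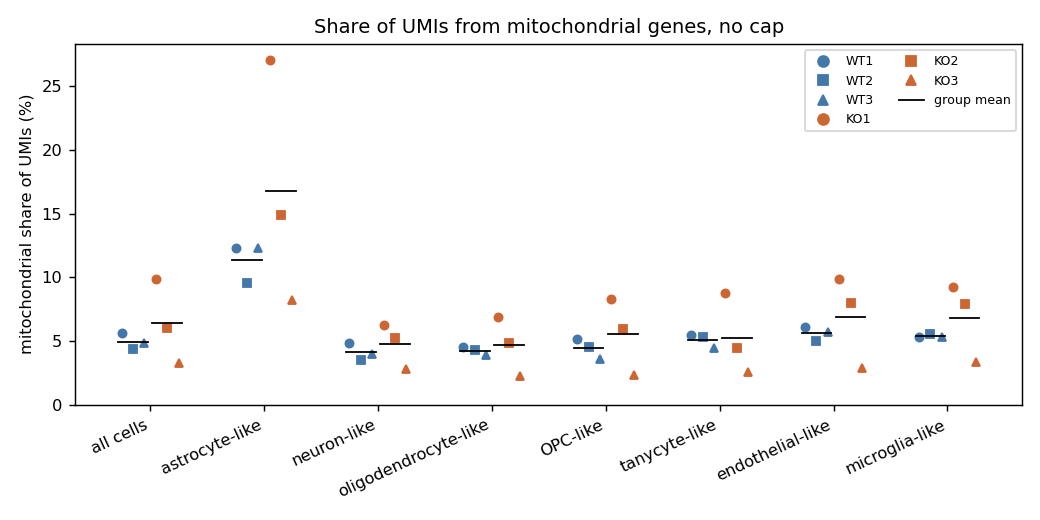
Mitochondrial share of UMIs in percent for all cells and for 7 cell classes, without a cap; each point is a library and each black line a group mean. Astrocyte-like cells lie between 8.23% and 27.1%, and KO1 is the highest and KO3 the lowest knockout library in every class.

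Of the 29 genes, 27 were higher in astrocyte-like than in other cells by edgeR with library as a block, against 20.8% of 10108 genes called higher, and 0 were lower; 22 of the 29 passed the filter on low counts. Their median log2 fold change was 3.13, against -0.12 over all genes; with total UMIs as the scale the all-gene median was -0.59, and 26 were called higher with a median of 2.68. The exceptions, mt-Co2 and mt-Nd4l, had 4 and 14 UMIs. Low counts were not limited to these exceptions, since the 27 include genes below the filter. mt-Atp6, called higher at edgeR adjusted p = 0.0388, had only 1 UMI in KO1 and 2 in KO2 over all cells. Among the 7 classes, 20 of the 29 genes had their highest level in astrocyte-like cells in all 6 libraries. The share of all genes with this ranking is not given here.

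The size of the difference followed the kind of RNA only in part. Most transfer RNAs rose more than the coding genes and ribosomal RNAs, but mt-Rnr2 lay within the range of the coding genes. The 8 coding genes other than mt-Atp6, mt-Co2 and mt-Nd4l rose by 1.59 to 2.12 on the log2 scale, with mt-Nd1 at 1.59 ± 0.15 (SE), mt-Cytb at 1.59 ± 0.15, mt-Nd5 at 1.61 ± 0.14, mt-Nd6 at 1.69 ± 0.16, mt-Nd4 at 1.80 ± 0.14, mt-Nd2 at 1.90 ± 0.15 and mt-Co1 at 2.00 ± 0.14. mt-Nd3, counted only in the knockout libraries, was at 2.12 ± 0.20. mt-Rnr2 rose by 2.11 ± 0.18 and mt-Rnr1 by 3.13 ± 0.15. Of the 16 transfer RNAs, 13 rose by 3.88 to 4.92, with a median of 4.51. The remaining 3, mt-Tw, mt-Ty and mt-Te, had 77, 75 and 49 UMIs in all and rose by 1.60, 1.66 and 1.78 (edgeR adjusted p = 0.0041, 0.0055 and 0.0091); they were set apart after their values were seen.

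For 12 of the 16 transfer RNAs, every library's astrocyte-like level lay above every library's level in other cells, and mt-Te, mt-Tr, mt-Tw and mt-Ty overlapped. How many of all genes separate in this way is not given here, and 20.8% of 10108 genes were called higher. mt-Tv was at 690, 586 and 821 CPM in astrocyte-like cells of WT1 to WT3 and at 1098, 855 and 696 in those of KO1 to KO3. In the other cells it was at 37.9, 52.1 and 37.6 CPM in WT1 to WT3 and at 38.7, 50.4 and 55.5 in KO1 to KO3. Its log2 fold change was 4.56 ± 0.16 (SE, edgeR adjusted p = 2.5e-24). mt-Tf was at 97.1 to 252 CPM in astrocyte-like cells and at 1.82 to 9.45 CPM in the others (4.85 ± 0.20, adjusted p = 8.6e-22). mt-Tl2 showed the largest difference, 297 ± 82.8 CPM (SD, n = 6) against 13.8 ± 5.28 (4.92 ± 0.18). mt-Cytb, for comparison, was at 10708 ± 2401 CPM against 4696 ± 397.

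Astrocyte-like cells held 11.9% of all UMIs but 68.6% of the 10378 transfer RNA UMIs. Transfer RNAs made up 2.26%, 2.80% and 2.83% of their mitochondrial UMIs in WT1 to WT3 and 2.06%, 2.67% and 4.30% in KO1 to KO3. In the other cells the same libraries had 0.379%, 0.675%, 0.544%, 0.341%, 0.507% and 1.22%. The astrocyte-like share was the higher one in 6 of 6 libraries, and its lowest value, 2.06%, lay above the highest of the other cells. Barcodes with fewer than 300 genes had 1.15%, 1.23% and 2.02% in WT1 to WT3 and 1.17%, 1.11% and 2.93% in KO1 to KO3. In every library this lay below the astrocyte-like share and above that of the other cells. Among the other classes the mean ranged from 0.461% ± 0.514 (SD, n = 6) in tanycyte-like to 0.898% ± 0.384 in OPC-like cells. KO3, the knockout library with the least mitochondrial RNA, had the largest share of transfer RNA in each of the 7 classes. Transfer RNAs lie next to, and in part overlap, the other genes, and whether the UMIs counted to them come from precursors that were not cut was not tested.

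**Figure D4:**
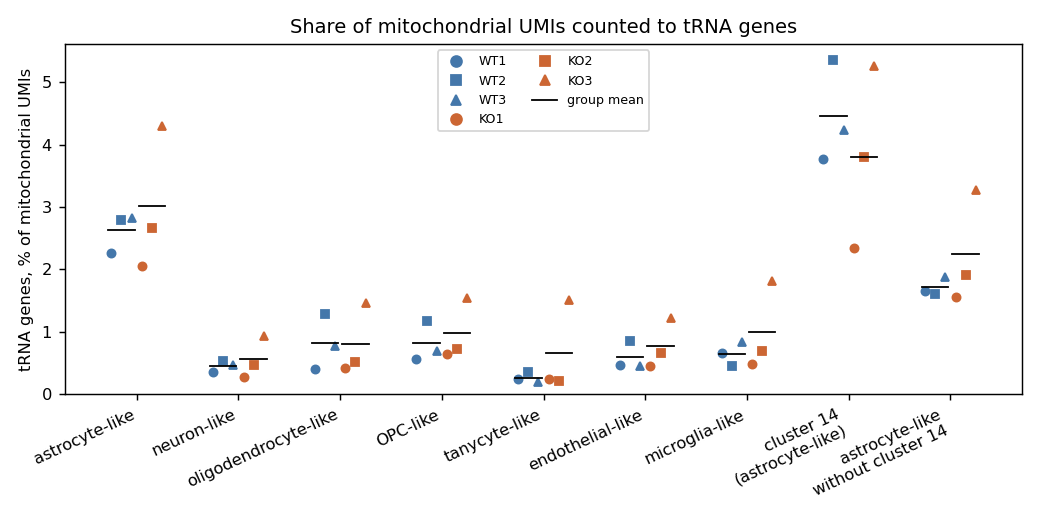
UMIs counted to the 16 transfer RNA genes as a percent of all mitochondrial UMIs, for 7 cell classes and for the astrocyte-like class split into cluster 14 and the rest; each point is a library and each black line a group mean. The astrocyte-like libraries lie between 2.06% and 4.30%, and without cluster 14 between 1.57% and 3.27%.

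A single cluster, numbered 14, supplied much of this. It held 352 of the 2027 astrocyte-like cells and 42.5% of all transfer RNA UMIs, with 46, 13 and 42 cells in WT1 to WT3 and 136, 50 and 65 in KO1 to KO3. Its mitochondrial share was 31.4%, 30.1% and 28.9% in WT1 to WT3 and 41.0%, 35.0% and 22.0% in KO1 to KO3, and 287 of its cells were over 20%. It made up 8.28% to 15.2% of astrocyte-like cells in the WT libraries and 12.7% to 34.3% in the KO libraries. Its cells were not cleanly of 1 type. The 9 astrocyte markers summed to 12131 ± 1834 CPM (SD, n = 6) in it against 27336 ± 1830 in the other astrocyte-like cells. The 9 oligodendrocyte markers summed to 16820 ± 9228 CPM against 2718 ± 1072, and the 12 neuron markers to 3492 ± 909 against 949 ± 246, while the 6 perivascular macrophage markers were at 0 in it. The part of this mixture in the results was not tested.

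Without cluster 14 the astrocyte-like cells still stood apart. Of the 29 genes 23 were higher than in other cells, against 21.0% of 10021 genes, and 0 were lower, with a median log2 fold change of 2.33. The coding genes named above were at 0.74 to 1.22, mt-Rnr1 at 2.33 ± 0.12 (SE) and mt-Rnr2 at 1.59 ± 0.14. The 13 transfer RNAs rose by 2.74 to 3.91, and mt-Tw, mt-Ty, mt-Te and mt-Atp6 were no longer called. Transfer RNAs made up 1.98% ± 0.648 (SD, n = 6) of the mitochondrial UMIs of these cells. The knockout split of mt-Nd3 and mt-Tr was present on both sides: mt-Nd3 had 0 wild-type UMIs in cluster 14 and in the rest, and 341 and 178 knockout UMIs. mt-Tr had 3 and 58 UMIs in WT and KO in cluster 14, and 3 and 43 in the rest.

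**Figure D5:**
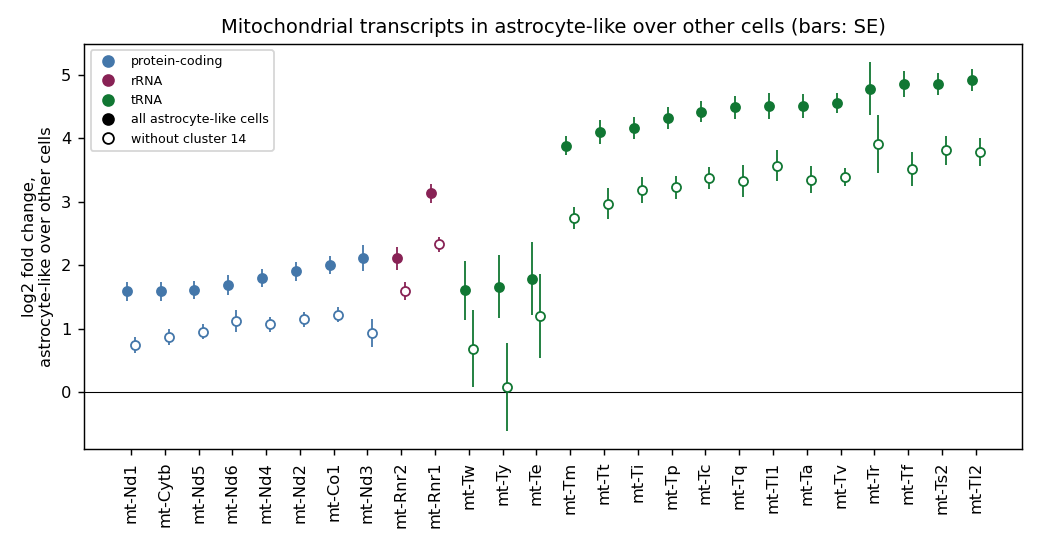
Log2 fold change of astrocyte-like over other cells from edgeR with its standard error, for 26 mitochondrial genes (mt-Atp6, mt-Co2 and mt-Nd4l, with 3 to 14 UMIs, are left out); filled points use all astrocyte-like cells and open points leave out cluster 14. Coding genes lie at 1.59 to 2.12, mt-Rnr2 and mt-Rnr1 at 2.11 and 3.13, and 13 transfer RNAs at 3.88 to 4.92, and every open point lies below its filled point.

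The other 6 classes were each compared with all remaining cells, with and without astrocyte-like cells among them, and the counts depended on that choice. Neuron-like cells had 19 genes lower and 0 higher (71.6% of all genes were called in either direction). With astrocyte-like cells left out of the remainder they had 6 lower and 5 higher (70.3%), the higher ones being the complex I subunits mt-Nd1 (0.66 on the log2 scale), mt-Nd2 (0.40), mt-Nd3 (0.64) and mt-Nd5 (0.59) with mt-Te. The lower ones were mt-Rnr1 (-0.65), mt-Rnr2 (-0.32) and 4 transfer RNAs. Complex I transcripts made up 28.2% ± 6.45 (SD, n = 6) of the mitochondrial UMIs of neuron-like cells, and ribosomal RNA 57.2% ± 9.85. Their mitochondrial share, 4.42% ± 1.26, differed from that of the remainder without astrocyte-like cells by -0.09 percentage points (exact sign-flip permutation p = 0.8125).

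This class mean joined a cluster rich in mitochondrial RNA with others that were not. Cluster 11, led by Snhg11, Meg3 and Syt1, held 690 of the 2948 neuron-like cells at a median mitochondrial share of 10.8% per cell, and the other neuron-like clusters had medians of 3.14% to 4.65%. By library its share of UMIs was 13.3%, 9.50% and 10.8% in WT1 to WT3 and 14.9%, 12.5% and 6.59% in KO1 to KO3. The other neuron-like cells were at 4.08%, 3.13% and 3.33% and at 5.37%, 4.08% and 2.35%. Its median per cell was also above that of astrocyte-like clusters 9 (7.29%) and 13 (9.41%), so a high mitochondrial share was not confined to astrocyte-like cells. Its transfer RNA share was low, 0.462% ± 0.260 of mitochondrial UMIs (SD, n = 6), against 0.526% ± 0.219 in the other neuron-like cells and at least 2.06% in astrocyte-like cells of any library. Its cells were shallower, with library medians of 710 ± 83.1 UMIs against 1816 ± 220 in the other neuron-like cells, and the part of depth in its share was not tested. The neuron markers summed to 50976 ± 4479 CPM in it and to 25930 ± 1695 in the other neuron-like cells, and the astrocyte markers to 589 ± 150 and 498 ± 82.1. The neuron markers were also used to name the cluster. They include Snhg11 and Meg3, which were listed as nuclear-retained RNAs too, so the larger sum is no measure of neuron identity. The part of these RNAs in it was not tested.

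Without cluster 11 the neuron-like share was 3.72% ± 1.04 (SD, n = 6), below that of the remainder without astrocyte-like cells in 6 of 6 libraries. The mean difference was -0.79 percentage points (exact sign-flip permutation p = 0.03125, the smallest that 6 libraries allow). Cluster 11 was left out for its high share, and this by itself lowers the share of the neuron-like cells kept. The remainder was not trimmed in the same way, so neither this p nor the gene counts that follow test for a low share. Against that remainder 11 genes were lower and 3 higher (70.1% of all genes called). mt-Nd1 (0.41 on the log2 scale), mt-Nd5 (0.34) and mt-Te were the higher ones, and mt-Nd2 and mt-Nd3 were no longer called (edgeR adjusted p = 0.101 and 0.0587). mt-Rnr1 (-0.91), mt-Rnr2 (-0.58), mt-Co1 (-0.34) and mt-Cytb (-0.22) were lower, with 7 transfer RNAs.

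Oligodendrocyte-like cells depended on scaling. They had 8 genes lower and 1 higher (61.3% called) with TMM scaling, 21 lower and 0 higher with total UMIs as the scale, and 18 higher and 0 lower (62.0%) with TMM scaling once astrocyte-like cells were left out. Their mitochondrial share, 4.43% ± 1.52 (SD, n = 6), and that of the remainder without astrocyte-like cells, 4.45% ± 1.41, differed by -0.02 percentage points (exact permutation p = 0.906). Tanycyte-like cells had 18 lower and 0 higher (40.5%), and 3 lower and 2 higher without astrocyte-like cells (42.1%), and mt-Cytb, at 6322 ± 964 CPM (SD, n = 6), and mt-Co1 were the higher ones. OPC-like cells had 16 lower and 0 higher (38.7%), and 7 lower, all coding genes, and 2 higher, mt-Rnr1 and mt-Tf, without them (39.8%).

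Against the remainder without astrocyte-like cells, endothelial-like and microglia-like cells had more ribosomal RNA, but not they alone. With TMM scaling, oligodendrocyte-like cells were also higher in mt-Rnr1 (0.97 on the log2 scale) and mt-Rnr2 (0.59), and OPC-like cells in mt-Rnr1 (0.54). In CPM, without that scaling, oligodendrocyte-like cells had 1534 ± 560 for mt-Rnr1 and 28506.2 ± 13545.1 for mt-Rnr2 (SD, n = 6). All cells other than astrocyte-like ones, these included, had 1185 ± 414 and 27557.3 ± 12956.5. The higher mt-Rnr2 of oligodendrocyte-like cells thus depended on the scaling. Neuron-like cells were lower in both genes, and both had their highest level in astrocyte-like cells. Endothelial-like cells had 12 genes lower and 1, mt-Rnr2, higher (55.7%). Microglia-like cells, the resident macrophages of the brain, had 8 lower and 1, mt-Rnr2, higher (48.9%). Without astrocyte-like cells in the remainder, endothelial-like cells had 5 higher and 2 lower (56.7%), and microglia-like cells had 7 higher and 2 lower (48.8%), with mt-Rnr1 (0.84 and 0.84 on the log2 scale) and mt-Rnr2 (0.86 and 0.82) among the higher ones in both. Ribosomal RNA made up 75.4% ± 7.44 of the mitochondrial UMIs of endothelial-like and 78.6% ± 6.61 of those of microglia-like cells (SD, n = 6). Their mitochondrial shares, 6.25% ± 2.40 and 6.10% ± 2.12, were above the remainder without astrocyte-like cells in 6 of 6 libraries, by 1.90 and 1.68 percentage points (exact permutation p = 0.03125, adjusted p = 0.0938 over the 6 classes for both).

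Depth and RNA quality stood as follows beside these values. Median UMIs per cell ranged from 797 to 994 over the libraries and did not differ between the groups beyond their spread (904 ± 81.6 in WT, 859 ± 96.1 in KO, SD, n = 3, exact permutation p = 0.5). By class the mean of the library medians was 666 ± 65.3 UMIs in astrocyte-like cells, 1344 ± 259 in neuron-like and 621 ± 37 in microglia-like cells (SD, n = 6). Malat1, a nuclear-retained RNA, had a log2 fold change of -0.00 ± 0.22 between KO and WT. Of the heat shock genes, Hspa1a (0.57 ± 0.21) and Hspa1b (1.38 ± 0.44) had an unadjusted p under 0.05 and an edgeR adjusted p of 1.00. Their part in the results was not tested.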

How the data were processed

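Drop-seq libraries of mouse hypothalamus (3 WT, 3 KO) were analysed from 1 table of raw UMI counts that the authors deposited, with genes in rows and 13994 barcodes in columns. Per the submitters' processing notes, reads were handled with bcl2fastq and STAR 2.5.0c on mm10/GRCm38. The counting program, annotation, strand and choice of barcodes are not given in the sources used here. Cells with at least 300 genes were kept, and scrublet (scanpy 1.11.5) removed 122 doublets (1.22%). Clustering left out all mt- rows and used 2000 variable genes, 30 components and Leiden resolution 1 (26 clusters). Names came from fixed markers, but how markers were scored was decided after the clusters had been looked at.

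Counts were summed per library and class and tested with edgeR 4.0.16 (filterByExpr with mt- rows always kept, TMM, quasi-likelihood F-test, Benjamini-Hochberg at 0.05 over all genes); shares were tested by exact permutation, two-sided. CPM without further note is relative to all UMIs of the cells summed; for the nuclear-encoded factors it is TMM-scaled. Group values are mean ± SD of libraries, and SE belongs to fold changes. Copies were found with blastn 2.17.0 (at least 50 bases at 95% identity). On simulated data with 2-fold changes, 43.5% of 200 changed genes were recovered for KO over WT (3 false calls, 13186 genes) and 92.5% for astrocyte-like over other cells (6 false calls, 10528 genes). Every mt- row is accounted for; those passing the filter, and transfer RNAs with at least 10 UMIs, are named, and of the factor list the 3 with the smallest p. The members and lists were chosen with earlier results of these data known. Alternatives covered DESeq2, filters, scaling, robust settings, the cap, cell minimums, doublets, clustering resolution, a replicate block and leaving out each library; leaving out astrocyte-like cells, cluster 14 or cluster 11 was added after seeing the data.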

Additional observations from a re-analysis of the deposited data

Results flagged for a closer look

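Barcodes with fewer than 300 genes (3965 in the table) took no part in the comparisons, and they carried the same split. mt-Nd3 had 0 UMIs in the barcodes of all 3 wild-type libraries and 82, 193 and 21 in those of KO1 to KO3, and these values were noticed because a signal stood above the control level in data outside the main measurement. mt-Tr had 0, 0 and 1 UMIs in the barcodes of WT1 to WT3 and 12, 5 and 13 in those of KO1 to KO3. The mitochondrial share in these barcodes was 15.9%, 10.8% and 14.2% in WT1 to WT3 and 22.6%, 13.3% and 8.30% in KO1 to KO3. KO1 was again the highest and KO3 the lowest library, and KO2, the second highest among the cells kept, lay below WT1 and WT3 here.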

How the results depend on the processing

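Precision was limited by the low counts of mt-Nd3 and mt-Tr in the smaller classes, by 3 libraries per group and by KO1 and KO3, which had the most and the least mitochondrial RNA. The number of mitochondrial genes called between KO and WT over all cells was 0; it was 2 with DESeq2, 1 with a replicate block, and 0 to 2 when 1 library was left out. By class it was 2 in astrocyte-like cells, and 1 with robust settings or the 20% cap (1 to 4 without 1 library). In OPC-like cells it was 0, and 1 with no gene filter or total UMIs (0 to 2 without 1 library). In endothelial-like cells it was 0, and 1 with no gene filter, total UMIs or the replicate block (0 to 2 without 1 library). In microglia-like cells it was 0, and 1 with the replicate block. It fell from 1 to 0 with robust settings in neuron-like and oligodendrocyte-like cells and with DESeq2 in tanycyte-like cells (0 to 1 without 1 library). The replicate numbers pair the libraries only in part: same-numbered libraries correlated at 0.32, -0.16 and 0.38 over 6411 genes. WT1 and WT3 correlated best with their own number, and WT2 with KO1 (0.21). WT1 with KO3 and WT3 with KO1 were at -0.38 and -0.48. Against other cells, the number called fell from 16 to 8 with the cap and 9 without astrocyte-like cells in OPC-like cells, and from 13 to 6 with the cap, 8 with at least 500 genes and 7 without astrocyte-like cells in endothelial-like cells. It fell from 9 to 5 with the cap in microglia-like cells (5 to 8 without 1 library), from 19 to 11 and from 18 to 5 without astrocyte-like cells in neuron-like and tanycyte-like cells. It rose from 9 to 21 with total UMIs and to 18 without astrocyte-like cells in oligodendrocyte-like cells (6 to 14 without 1 library). Fold changes near 0 turned over all cells. With the cap mt-Nd1 was -0.11, mt-Nd4 -0.022, mt-Nd5 -0.024 and mt-Cytb -0.14, and without astrocyte-like cells mt-Nd1 was -0.10, mt-Nd4 -0.0035 and mt-Cytb -0.14. Without 1 library the log2 fold changes ranged from -0.23 to 0.91 for mt-Rnr2, -0.060 to 0.34 for mt-Nd1, -0.55 to 0.21 for mt-Tw, -0.32 to 0.65 for mt-Co1, -0.030 to 0.70 for mt-Ts2, -0.083 to 0.57 for mt-Nd5 and -0.055 to 0.11 for mt-Cytb. The KO minus WT share of UMIs ranged, in percentage points, from -0.28 to 3.01 over all cells, -0.30 to 2.68 in OPC-like, -0.16 to 3.31 in endothelial-like, -0.10 to 1.63 in neuron-like, -0.69 to 1.65 in oligodendrocyte-like and -1.57 to 1.52 in tanycyte-like cells, where the cap gave -0.12. That of cells over 20% ranged from -0.086 to 6.04. The class difference in share turned from -0.72 to 0.14 with the cap and 0.53 without astrocyte-like cells in OPC-like cells, and from -0.54 to 0.36 with the cap, 0.12 with at least 500 genes and 0.76 without astrocyte-like cells in tanycyte-like cells. The causes were not tested. Over all alternatives, 278 of the values that answer a comparison gave the same result, 16 were stronger, 17 weaker and 7 reversed. For single genes and classes these numbers were 703, 14, 8 and 29. The same result meant a similar count of genes called or, in a gene test, the same direction and the same call.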
